A study of Mus musculus with 12 samples.

Results

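The genes described here are 42 cell junction and adhesion genes, chosen by name as the cadherins, catenins, claudins and other tight junction proteins, junctional adhesion molecules, connexins, nectins, desmosomal plaque proteins and neural-type adhesion molecules. All 42 had a row in the count table of 32761 genes, and 39 of them were among the 17965 genes with enough reads to be tested. They were followed in RNA of the corneal endothelium of 2 kinds of mice, homozygotes for Col8a2 Q455K and wild type, each taken early (no older than 2 months) and late (8 months or older). Col8a2 encodes a collagen of Descemet membrane, and the mutant is a model of Fuchs endothelial corneal dystrophy. The 4 groups, early mutant, early wild type, late mutant and late wild type, held 3 libraries each, labelled as biological replicates. For the strain, the sex and the number of animals pooled into a library the sources used here give nothing.

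The corneal endothelium is a single layer of flat cells on the back of the cornea that pumps fluid out of the stroma while staying slightly leaky itself. Its cells are held together by adherens junctions, in which cadherins grip the neighbouring cell and catenins tie them to actin, and by tight junctions, in which claudins and Marvel proteins form the seal and set which ions pass while cytoplasmic scaffolds anchor them. Gap junctions made of connexins couple the cells, and nectins and junctional adhesion molecules help to place the other contacts.

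Total counts ran from 19722598 to 39431676 per library, so that 3 counts stood for 0.0773 to 0.132 CPM (counts scaled to library depth, here by the TMM method). The defining markers of the layer were abundant in every library, from 1827 CPM (late wild-type replicate 3) to 6153 CPM (late mutant replicate 1) for the transporter gene Slc4a11. All early libraries were batch 1 and all late libraries batch 2 per the labels, so stage and batch cannot be told apart, whereas each mutant-to-wild-type comparison lies within 1 batch. Late wild-type replicate 1 stood apart from the other late wild-type libraries. The mean chi-square per gene, which is near 1 where only sampling separates libraries, was 234.8 and 236.8 between it and replicates 2 and 3, and 59.14 between those libraries. In 18 of the 39 tested members it lay nearer the late mutant mean than the mean of the other late wild-type libraries. This is a smaller share than the 58% of all tested genes in which it did so. Slc4a11 was at 5101 CPM in late wild-type replicate 1 and at 1895 and 1827 CPM in replicates 2 and 3, the lowest values of the study. Summed corneal endothelium markers were at 13250 CPM against 7446 and 6745 CPM, the latter again the lowest. Which of these libraries are atypical was not tested. Late values that rest on replicate 1 are also given without it, which does not mark it as the faulty library.

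Cldn10, a claudin whose isoforms form paracellular ion channels, was by far the most abundant member per length. Its median over the 6 wild-type libraries was 5272 FPKM (deposited as fragments per length and depth), rank 13 among all genes of the table, and it made up 87.8% to 94.0% of the summed FPKM of the members in each library. The next members were Alcam, an immunoglobulin-type adhesion molecule, at 59.3 FPKM, Ctnna1, the alpha-catenin that links cadherins to actin, at 52.8 FPKM, and Gja1, the connexin of the main corneal gap junctions, at 51.1 FPKM. Ncam1 (40.4 FPKM), the beta-catenin gene Ctnnb1 (39.3 FPKM), Jam2 (31.3 FPKM), the paracingulin gene Cgnl1 (30.7 FPKM) and F11r, which encodes JAM-A (28.3 FPKM), followed. Cldn10 was separated from Alcam by a gap that no wild-type library bridged, as was F11r from Pkp4 (10.2 FPKM), while every other pair of neighbours in the order overlapped over the wild-type libraries. In TMM-scaled CPM per kilobase the 8 highest members were the same, with Ncam1 ahead of Gja1.

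**Figure D1:**
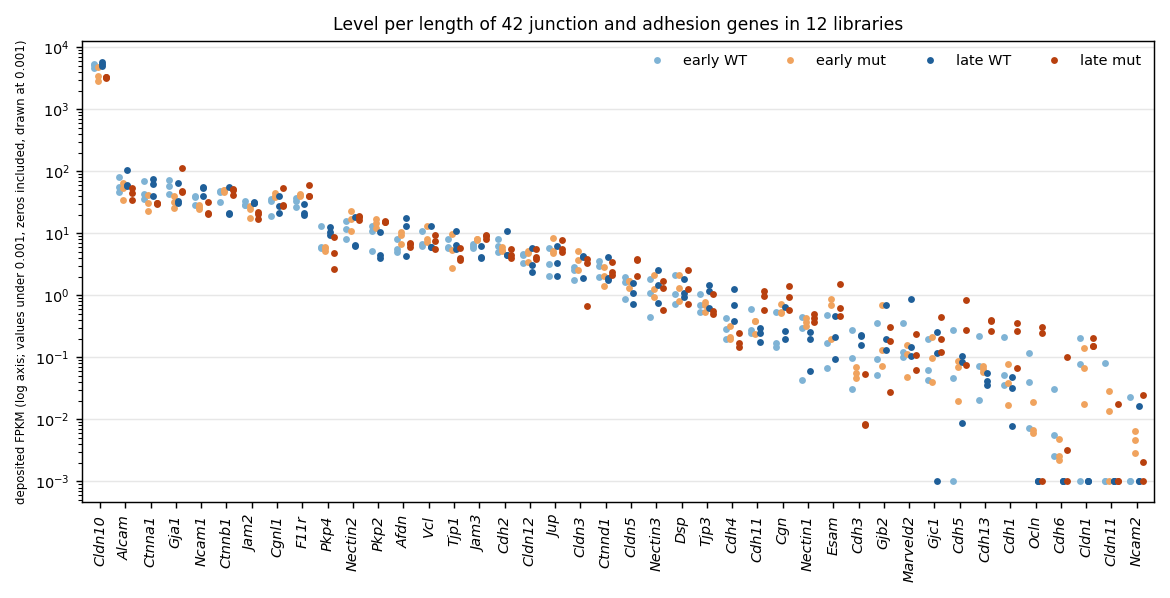
Deposited FPKM (log axis) of the 42 members in each of the 12 libraries, ordered by the median of the 6 wild-type libraries, with the 4 groups in different colours. Cldn10, at a wild-type median of 5272 FPKM, lies far above all other members. By that median 24 members reach 1 FPKM and 9 lie under 0.1 FPKM.

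Near the other end of the order were some of the junction genes typical of other epithelia or of blood vessels. Cdh1, the E-cadherin of surface epithelia, had a wild-type median of 0.0420 FPKM, the occludin gene Ocln 0.00371 FPKM and Cdh5, the VE-cadherin of blood vessels, 0.0663 FPKM, whereas the N-cadherin gene Cdh2 stood at 5.74 FPKM. Cldn1 and Cldn11 were listed at 0 FPKM in the median wild-type library, as was Ncam2. Other genes known from epithelia or blood vessels stood higher, such as Cldn5 at 1.34 FPKM and the desmosomal genes Jup and Dsp at 3.31 and 1.07 FPKM. Cdh6 (49 reads over all libraries, 34 of them in late mutant replicate 1), Cldn11 (7 reads) and Ncam2 (39 reads) did not pass the low-count filter. The scaffold gene Tjp1, which encodes ZO-1, was at 6.25 FPKM and its relative Tjp3 at 0.890 FPKM.

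Among the 4 members that could be matched to a promoter and were called in a comparison below, Cldn10 has 2 annotated starts, known to give isoforms with different first exons and different ion preference. A count per gene cannot tell them apart. The 250 bases before each start follow as given by RefSeq on build GRCm38.p6, which is not the build of the counts. Capitals mark matches to 4 motifs searched on both strands: the E-box CACCTG or CAGGTG, the AP-1 site TGANTCA, the GC box GGGCGG or CCGCCC, and the CCAAT box CCAAT or ATTGG. F11r is shown as a member that was higher in mutants and Pkp4 as a member that was lower.
Cldn10 upstream start (chr14:118787621-118787870, plus strand): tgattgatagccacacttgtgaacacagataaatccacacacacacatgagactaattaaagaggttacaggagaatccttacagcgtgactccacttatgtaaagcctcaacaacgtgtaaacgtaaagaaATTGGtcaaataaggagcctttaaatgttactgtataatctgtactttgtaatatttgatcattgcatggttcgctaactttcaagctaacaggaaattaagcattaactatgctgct
Cldn10 downstream start (chr14:118854700-118854949, plus strand): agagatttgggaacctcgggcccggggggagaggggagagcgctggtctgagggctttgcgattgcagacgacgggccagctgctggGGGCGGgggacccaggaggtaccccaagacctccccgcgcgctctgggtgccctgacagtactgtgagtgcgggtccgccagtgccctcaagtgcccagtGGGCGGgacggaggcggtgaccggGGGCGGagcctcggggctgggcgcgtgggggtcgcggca
F11r (chr1:171437311-171437560, plus strand): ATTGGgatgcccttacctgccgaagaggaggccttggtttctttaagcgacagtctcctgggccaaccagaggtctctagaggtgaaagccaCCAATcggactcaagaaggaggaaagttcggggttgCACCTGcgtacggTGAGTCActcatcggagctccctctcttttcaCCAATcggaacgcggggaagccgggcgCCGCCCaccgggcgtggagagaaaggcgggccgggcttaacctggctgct
Pkp4 (chr2:59160600-59160849, plus strand): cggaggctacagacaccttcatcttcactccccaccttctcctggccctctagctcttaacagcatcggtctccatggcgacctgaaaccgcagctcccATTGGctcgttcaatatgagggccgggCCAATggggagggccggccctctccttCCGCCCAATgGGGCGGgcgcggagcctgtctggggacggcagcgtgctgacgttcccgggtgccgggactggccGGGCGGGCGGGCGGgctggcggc

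The starts of Cldn10 differ in base composition. The upstream window is 36.0% G or C and holds 1 CCAAT box, and the downstream window is 72.4% G or C and holds 3 GC boxes. The first 50 bases after the downstream start were found in a GENCODE transcript of the gene, while those after the upstream start were not. F11r held 1 match each to the E-box, AP-1 and GC box and 3 to the CCAAT box, and Pkp4 held 5 GC boxes and 3 CCAAT boxes, some of which share bases. The promoter of Cgn, another member called higher, held 6 GC boxes and 2 CCAAT boxes. Over the 36 promoters matched for 27 of the 42 members, 75% held a GC box, 44.4% a CCAAT box, 22.2% an E-box and 5.56% an AP-1 site. Of 32851 promoters of the same length in the table, 32.7%, 33.8%, 17.2% and 6.75% did. These matches are letters in a window and not evidence of binding.

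The early comparison asked whether junction genes differ between genotypes in animals of up to 2 months. No member passed the threshold of an adjusted p of 0.05 (edgeR's quasi-likelihood test with Benjamini-Hochberg adjustment over all tested genes), where 0.59% of all tested genes did. The smallest adjusted p was 0.457, 4 members had an unadjusted p under 0.05, and DESeq2 and limma-voom also called 0 members. Of the 39 tested members 19 lay above 0 and 20 below, with a median log2 fold change of -0.01 against -0.11 over all tested genes. As in any bulk sample, fewer cells of a type and less RNA per cell cannot be told apart.

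The 4 early members with an unadjusted p under 0.05 were 2 desmosomal plaque genes and the 2 cingulin genes, and all 4 had higher values in the mutants. Jup, the plakoglobin of desmosomes and adherens junctions, was at 48.5, 28.9 and 28.6 CPM in the early mutants and 13.5, 27.5 and 15.6 CPM in wild type (adjusted p = 0.457). Cgnl1 was at 328, 294 and 365 CPM against 177, 223 and 248 CPM (log2 fold change 0.61 ± 0.27 SE, adjusted p = 0.525). In both genes every mutant library lay above every wild-type library, narrowly so for Jup. Without overlap the mutants were higher in 7 members (17.9%), these being Jup, Cgnl1, Pkp2, Cgn, F11r, Afdn and Ctnnb1, where 10.1% of all tested genes were higher in this way. No member was lower without overlap, where 11.8% of all genes were. Summed corneal epithelium markers overlapped between the genotypes (95.1 to 601 against 72.2 to 162 CPM, with 0 of 14 genes called). The summed markers of 4 other cell types were higher in early mutants without overlap. Macrophage markers ran from 255 to 587 against 39.1 to 65.3 CPM (7 of 13 called higher), photoreceptor markers from 192 to 390 against 37.5 to 79.2 CPM (4 of 12), blood vessel markers from 176 to 238 against 98.3 to 125 CPM (1 of 14) and melanocyte and pigment epithelium markers from 103 to 251 against 43.4 to 57.2 CPM (0 of 10). Keratocyte (stromal cell) markers overlapped as a sum, at 23100 to 26200 against 19300 to 29700 CPM, with 3 of 12 called higher. Without their leading marker Dcn they ran from 5290 to 5760 against 3460 to 5060 CPM, with no overlap. Trabecular meshwork markers overlapped (1550 to 1890 against 1250 to 2130 CPM), with 2 of 6 tested called higher. The part of these cells in the values of the members was not tested.

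Gja1 did not pass early either. It was at 111, 84.3 and 140 CPM in the early mutants and at 280, 163 and 125 CPM in wild type (log2 fold change -0.76 ± 0.39 SE, adjusted p = 0.582). Early mutant replicate 3 lay inside the wild-type range. Of the other 2 connexins, Gjb2 and Gjc1 stayed at or under 1.79 CPM in all libraries.

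The late comparison asked the same in animals from 8 months. Here and below, rose and fell describe mutants against wild type and not a change from early to late. Among the members, 3 rose in late mutants (7.69% of those tested), namely the cadherins Cdh11 and Cdh13 and the plakophilin Pkp2, where 2.77% of all tested genes were higher. Another 4 fell (10.3%), namely the cadherin Cdh4, the adhesion molecule Ncam1, the plakophilin-related Pkp4 and Cldn10, where 2.71% of all genes were lower. The members' median log2 fold change was 0.14 against 0.00 over all tested genes. Over all genes 497 were called higher and 486 lower. The late mutants were higher without overlap in 9 members, where 14.9% of all tested genes were, and lower without overlap in 10, where 10.9% of all tested genes were.

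**Figure D2:**
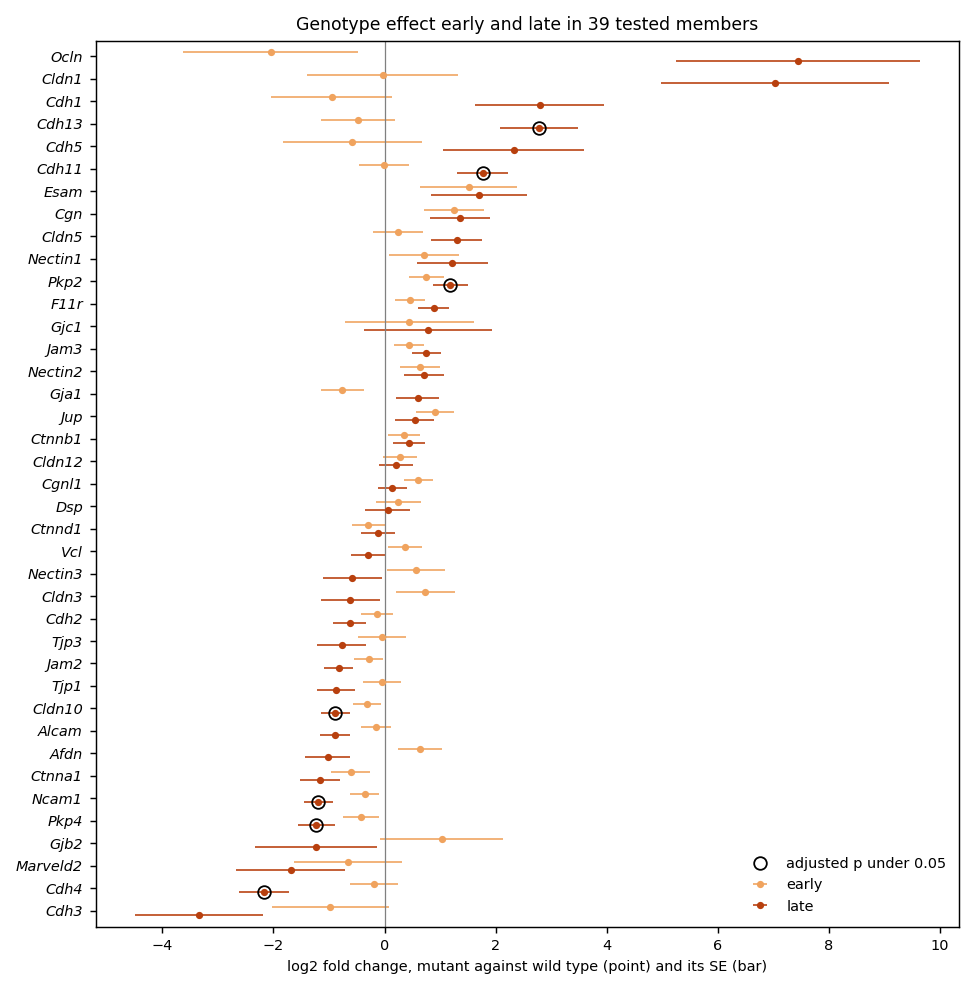
Log2 fold change of mutant against wild type (points) with its standard error (bars) for the 39 tested members, early and late, ordered by the late value. Circled points have an adjusted p under 0.05: 3 late members above 0, 4 below 0, and none early.

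Among the cadherins the late mutants showed opposite changes in different members. Cdh4, the R-cadherin, was at 1.51, 1.76 and 1.20 CPM in late mutants and at 9.97, 3.85 and 6.33 CPM in late wild type. All mutant libraries lay below all wild-type libraries, and the wild-type values were spread widely. Cdh4 fell 4.51-fold (log2 fold change -2.17 ± 0.45 SE, adjusted p = 0.0107), and 3.13-fold without late wild-type replicate 1 (adjusted p = 0.0232). Early mutants (1.97, 2.76 and 1.86 CPM) and early wild type (2.02, 3.25 and 2.22 CPM) overlapped, and the late wild-type libraries held the highest Cdh4 levels of the study. The late call was lost without late mutant replicate 3 (adjusted p = 0.0739) and held without any other single library.

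Cdh11, a cadherin of mesenchymal cells, was at 3.68, 5.12 and 7.09 CPM in late mutants and at 1.41, 1.28 and 1.98 CPM in late wild type. Cdh13, the cadherin anchored by a lipid instead of a membrane-spanning stretch, was at 3.09, 3.54 and 4.31 CPM against 0.361, 0.722 and 0.505 CPM. In neither gene did the genotypes overlap late. Cdh11 rose 3.39-fold (log2 fold change 1.76 ± 0.46 SE, adjusted p = 0.0338) and Cdh13 6.87-fold (2.78 ± 0.71 SE, adjusted p = 0.0298). Early, Cdh11 was at 2.57, 2.46 and 1.58 CPM in mutants against 1.87, 3.30 and 1.52 CPM, and Cdh13 at 0.874, 0.738 and 0.711 against 0.973, 2.11 and 0.206 CPM, with overlap in both. Both late calls held without late wild-type replicate 1 (adjusted p = 0.0232 and 0.0285). The call of Cdh13 was lost without late mutant replicate 1 or 3 or late wild-type replicate 2 or 3 (largest adjusted p = 0.0873). That of Cdh11 was lost without any of 7 libraries, early mutant replicate 1 or 3, any late mutant or late wild-type replicate 2 or 3 (largest adjusted p = 0.129). Both genes are low, and both are also known from fibroblast-like and other cells. Summed markers of keratocytes, the stromal cells of the cornea, ran from 21900 to 33000 CPM in late mutants and 21000 to 26600 CPM in late wild type, with 4 of 12 called higher, and without the leading marker Dcn from 5020 to 6710 against 2850 to 4420 CPM. Their part in the values of Cdh11 and Cdh13 was not tested.

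The other tested cadherins did not pass late. Cdh2, the main cadherin by level per length, was at 41.8, 46.1 and 42.5 CPM in late mutants and at 101, 52.2 and 48.6 CPM in late wild type (adjusted p = 0.173). All mutant libraries lay below the wild-type ones, narrowly so for 2 of the latter. The late log2 fold change of Cdh2 was -0.63, and -0.08 without late wild-type replicate 1 (adjusted p = 0.823). Cdh3, the P-cadherin, was at 0.0324 to 0.178 CPM against 0.590 to 1.04 CPM (adjusted p = 0.0818), and Cdh1 at 0.309, 0.982 and 1.52 CPM against 0.197, 0.0401 and 0.155 CPM (adjusted p = 0.129). Cdh5 was at 0.309, 2.86 and 1.07 CPM against 0.393, 0.401 and 0.0389 CPM and overlapped (adjusted p = 0.235). Cdh6 had 35 reads in late mutants, 34 of them in 1 library, and 0 in late wild type. Early, the values were 0.0820, 0.355 and 0.186 CPM in mutants against 0.187, 0.835 and 0.206 CPM for Cdh1, and 57.8, 52.0 and 65.7 against 76.1, 71.2 and 45.3 CPM for Cdh2. Early Cdh5 values were 0.382, 0.0820 and 0.309 CPM in mutants against 0.225, 0.967 and 0 CPM. All early groups overlapped in these 3 genes.

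Of the catenins and vinculin, the partners that link cadherins to actin, none passed late. Ctnna1 was at 148, 116 and 131 CPM in late mutants and at 172, 409 and 307 CPM in late wild type (log2 fold change -1.16 ± 0.36 SE, adjusted p = 0.059). The genotypes did not overlap, late wild-type replicate 1 lay closest to the mutants, and without it the gene passed at 2.48-fold lower (adjusted p = 0.0191). Ctnnb1 was at 185, 158 and 147 CPM against 188, 91.3 and 80.5 CPM (adjusted p = 0.316), and here late wild-type replicate 1 lay above all mutants. Without that library Ctnnb1 was 2.08-fold higher (adjusted p = 0.00772). Early it was at 199, 181 and 182 CPM in mutants and 141, 144 and 154 CPM in wild type, with no overlap. Ctnnd1, the p120-catenin that stabilises cadherins, and Vcl, vinculin, had late log2 fold changes of -0.12 and -0.30 (adjusted p = 0.819 and 0.536). In the mouse annotation Ctnna1, Ctnnb1 and Ncam1 each share exon bases with a gene on the opposite strand (Lrrtm2, Ulk4 and Gm11149), and whether reads were counted by strand is not given in the sources used.

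Cldn10, the abundant claudin, was at 4931, 3828 and 4722 CPM in late mutants and at 6564, 9178 and 9164 CPM in late wild type. Every mutant library lay below every wild-type library. Cldn10 fell 1.85-fold (log2 fold change -0.89 ± 0.26 SE) at an adjusted p of 0.0499, just under the threshold, and 1.87-fold without late wild-type replicate 1 (adjusted p = 0.0224). The call was lost when any 1 of 10 libraries was left out, all but replicate 1 of each wild-type group, with adjusted p up to 0.178 and log2 fold changes from -0.95 to -0.69. Early values were 4497, 5105 and 7600 CPM in mutants and 7967, 6688 and 6741 CPM in wild type and overlapped (adjusted p = 0.676). As a share of all counts Cldn10 made up 0.463% to 0.490% in late mutants and 0.719% to 0.851% in late wild type. Summed corneal endothelium markers ran from 10200 to 12700 CPM in late mutants and from 6740 to 13300 CPM in late wild type and overlapped. Of the 12 genes, 2 were called lower late and 0 higher. Early, the sums were 10300 to 15300 against 8190 to 11200 CPM, again with overlap and 0 called. Their relation to the values of Cldn10 and other members was not tested.

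The low claudins and the Marvel proteins, which include occludin and tricellulin, did not pass. Cldn1 had 49 reads over the late mutants and 0 over late wild type, at least 14.2-fold higher against a floor of 3 counts over the group (adjusted p = 0.0531). Early Cldn1 values were 0.492, 0.219 and 0.0619 CPM in mutants and 0, 0.571 and 0.232 CPM in wild type. Early wild-type replicate 2 thus lay within the late mutant range of 0.416 to 0.648 CPM. Ocln had 68 reads against 0, at least 19.7-fold higher, with 0 reads in late mutant replicate 1 and 1.10 and 1.00 CPM in replicates 2 and 3 (adjusted p = 0.0551). The early Ocln values were 0.0273, 0.0820 and 0.0309 CPM in mutants and 0.0374, 0.440 and 0.155 CPM in wild type. Cldn5, a claudin best known from blood vessels, was at 3.06, 4.52 and 5.05 CPM in late mutants against 1.41, 2.61 and 1.13 CPM (adjusted p = 0.0875). Cldn3, Cldn12 and Marveld2, which encodes tricellulin, overlapped between the genotypes at both stages. Cldn11 had 1, 2 and 0 reads in early mutants, 0, 3 and 0 in early wild type, 1, 0 and 0 in late mutants and 0 in all late wild-type libraries, at or under the floor of 3 counts.

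Markers of other cell types were summed in the same late libraries. Macrophage markers ran from 408 to 494 CPM in late mutants against 42.8 to 65.4 CPM in late wild type, with 10 of 13 called higher. Lens markers ran from 2080 to 2550 CPM in late mutants against 2150 to 4150 CPM, with 4 of 14 tested called higher. The lens sum without its leading marker Cryab ran from 257 to 400 CPM against 104 to 185 CPM, with no overlap. Summed corneal epithelium markers ran from 114 to 288 CPM in late mutants and from 41.0 to 560 CPM in late wild type, with 0 of 14 called and Krt12 detected in every library. Summed markers of blood vessel endothelium ran from 166 to 171 CPM against 108 to 182 CPM, with 1 of 14 called higher. Without their leading marker Egfl7 they ran from 119 to 126 CPM against 55.1 to 64.7 CPM, with no overlap, and Pecam1 was at 0.138 to 2.59 CPM against 0.389 to 3.13 CPM. The part of these cells in the values of the members that were higher late, among them Cldn1, Ocln, Cdh1, Cldn5, Cdh5, Esam, F11r and Pkp2, was not tested.

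Of the tight junction scaffolds, Tjp1 was at 37.4, 46.6 and 37.7 CPM in late mutants and at 94.2, 62.5 and 67.2 CPM in late wild type (log2 fold change -0.88 ± 0.34 SE, adjusted p = 0.108). The genotypes did not overlap late, yet Tjp1 passed the threshold under no alternative, where its adjusted p ran from 0.0647 to 0.296. Without late wild-type replicate 1 it was 1.46-fold lower in place of 1.84-fold (adjusted p = 0.258). Early values were 28.8, 94.4 and 55.8 CPM against 68.2, 48.2 and 68.5 CPM, so that the early mutants spanned a wider range than all other groups. Tjp3, the ZO-3 gene, overlapped at both stages. Cgnl1 was at 216, 343 and 212 CPM against 284, 190 and 226 CPM late and overlapped (adjusted p = 0.764).

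Of the junctional adhesion molecules none passed late. F11r was at 157, 82.2 and 97.9 CPM in late mutants and at 68.0, 61.0 and 53.1 CPM in late wild type (adjusted p = 0.0641). Jam3, another member of the family, was at 40.1, 27.6 and 35.5 CPM against 23.9, 19.5 and 17.99 CPM (adjusted p = 0.0874). Jam2 was at 88.3, 93.0 and 99.8 CPM against 143, 185 and 170 CPM (adjusted p = 0.0632). None of the 3 overlapped between the late genotypes, with F11r and Jam3 higher and Jam2 lower in mutants. Early, Jam2 was at 95.01, 142 and 136 CPM in mutants and 199, 127 and 130 CPM in wild type and overlapped. Without late wild-type replicate 1 all 3 passed, at 2.16-fold and 2.01-fold higher and 1.73-fold lower (adjusted p = 0.0206, 0.0225 and 0.0376). Esam, a related molecule of blood vessels and platelets, was at 0.714 to 2.72 CPM against 0.201 to 0.787 CPM and overlapped, at 3.24-fold higher (adjusted p = 0.204) and 5.29-fold without that library (adjusted p = 0.0893).

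The plakophilins changed in opposite directions. Pkp2, an armadillo protein of the desmosomal plaque, was at 46.9, 36.9 and 42.3 CPM in late mutants and at 27.9, 13.5 and 14.1 CPM in late wild type. Pkp4, which binds cadherins at adherens junctions, was at 14.5, 38.1 and 24.4 CPM against 60.8, 58.7 and 61.0 CPM. Neither gene overlapped, the wild-type values of Pkp4 were close to each other, and late wild-type replicate 1 was the highest wild-type library for Pkp2. Pkp2 rose 2.27-fold (log2 fold change 1.18 ± 0.32 SE, adjusted p = 0.0366), and 3.32-fold without that library (adjusted p = 0.00364). Pkp4 fell 2.34-fold (-1.23 ± 0.33 SE, adjusted p = 0.0372), and 2.14-fold without it (adjusted p = 0.0418). Without 1 of 6 libraries Pkp2 lost its late call (early mutant replicate 3, any late mutant, late wild-type replicate 2 or 3), with adjusted p up to 0.135. Pkp4 lost its late call without any early mutant, late mutant replicate 1 or 3 or late wild-type replicate 2 or 3, with adjusted p up to 0.158. Dsp, the desmoplakin that binds keratin filaments, and Jup overlapped late (adjusted p = 0.947 and 0.311). Without late wild-type replicate 1 Jup was 2.08-fold higher (adjusted p = 0.0402).

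Ncam1, the neural cell adhesion molecule, was at 227, 273 and 201 CPM in late mutants and at 519, 637 and 444 CPM in late wild type. The lowest wild-type library lay well above the highest mutant. Ncam1 fell 2.28-fold (log2 fold change -1.19 ± 0.27 SE, adjusted p = 0.0169) and 2.11-fold without late wild-type replicate 1 (adjusted p = 0.0157), and lost its call without late mutant replicate 1 or 3 or late wild-type replicate 2 (largest adjusted p = 0.116). Early values were 271, 294 and 291 CPM against 477, 255 and 363 CPM. Alcam was at 182, 226 and 215 CPM against 488, 349 and 318 CPM late, again without overlap (1.86-fold lower, adjusted p = 0.0617, and 1.47-fold without late wild-type replicate 1, adjusted p = 0.134), and at 192, 274 and 353 CPM against 286, 248 and 374 CPM early.

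Connexins and nectins did not pass late. Gja1 was at 372, 127 and 143 CPM in late mutants and at 189, 125 and 109 CPM in late wild type (adjusted p = 0.314). Only late mutant replicate 1 stood above all wild-type libraries, and the late log2 fold change of 0.60 ran from -0.06 to 1.01 over the alternatives. Afdn, the afadin that binds nectins to actin, was at 53.5, 38.7 and 52.9 CPM against 30.3, 119 and 146 CPM (adjusted p = 0.111). Late wild-type replicate 1 lay below all mutants and the other late wild-type libraries far above, and without that library Afdn was 2.51-fold lower (adjusted p = 0.00768). Nectin1 was at 2.58, 2.32 and 2.01 CPM against 1.34, 0.401 and 1.20 CPM without overlap (adjusted p = 0.22), while Nectin2 and Nectin3 overlapped. Nectin2 was 1.64-fold higher (adjusted p = 0.202), and 2.57-fold without late wild-type replicate 1 (adjusted p = 0.0162).

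**Figure D3:**
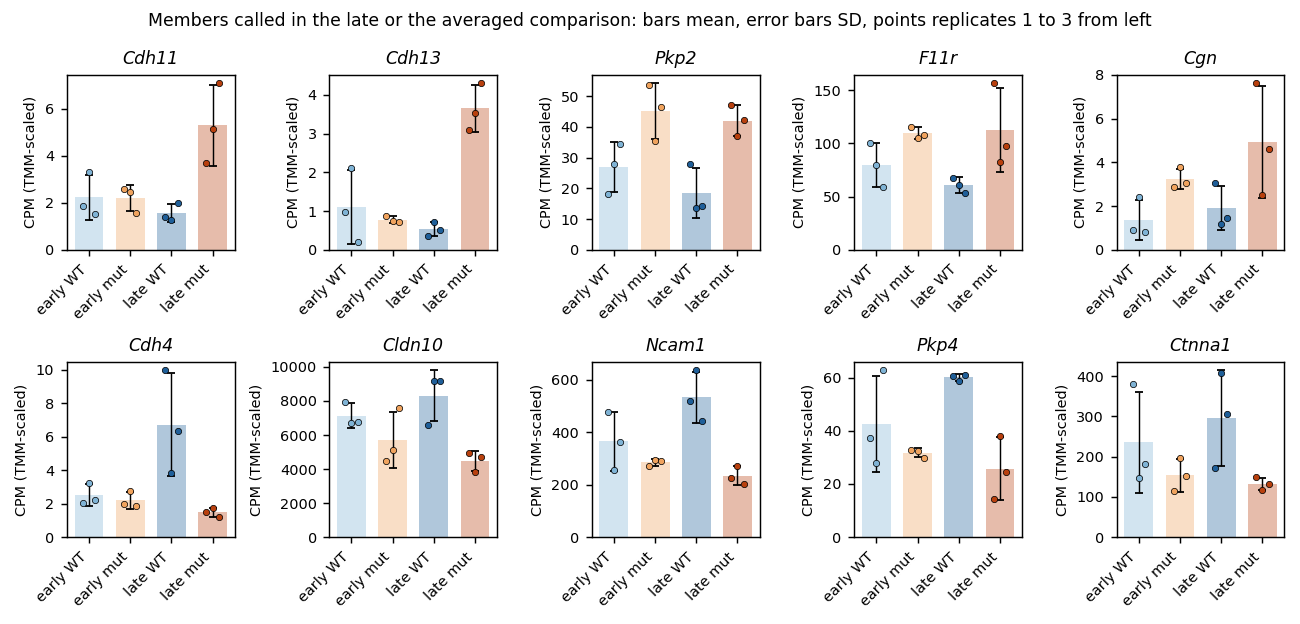
TMM-scaled CPM of the 10 members called late or over both stages, with the mean (bar), SD (error bar) and 3 libraries (points) of each group. The late wild-type points of Cdh4, at 3.85 to 9.97 CPM, lie above all other groups, and the late mutant points of Cdh13, at 3.09 to 4.31 CPM, do so as well.

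The number of members called late depended on single libraries. It was 7 over all libraries, 17 without late wild-type replicate 1, 11 without early wild-type replicate 1, 5 without early mutant replicate 2 or late mutant replicate 2, 4 when early mutant replicate 1 was absent and 3 when replicate 3 was, 2 without late wild-type replicate 3, 1 without late mutant replicate 1 or late wild-type replicate 2, and 0 without late mutant replicate 3. The 17 without late wild-type replicate 1 kept all 7 and added Cgn, Cldn1, Ctnnb1, F11r, Jam3, Jup and Nectin2 as higher and Afdn, Ctnna1 and Jam2 as lower. Calls over all genes moved with the same leave-outs, from 983 (5.47% of those tested) with all libraries to 3909 (20.3%) without late wild-type replicate 1, where 43.6% of the tested members were called, and to 238 (1.24%) without late mutant replicate 3. Cdh4 was among the late calls in every leave-out other than that of late mutant replicate 3.

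**Figure D4:**
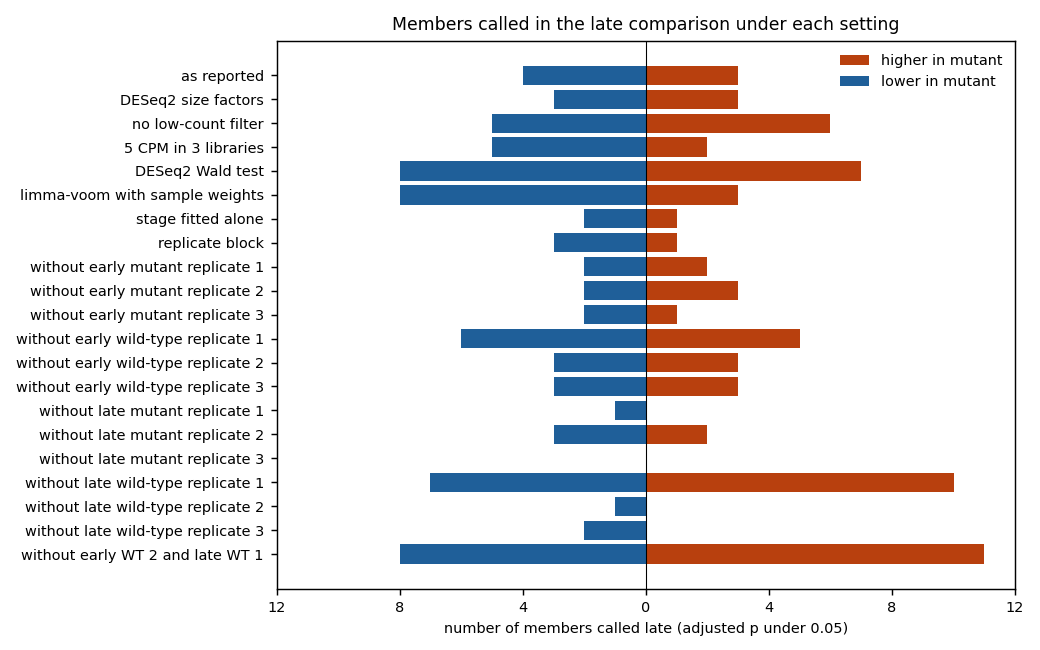
Number of members called late in each direction, as reported (3 higher, 4 lower) and under each alternative. The count runs from 0 without late mutant replicate 3 to 10 higher and 7 lower without late wild-type replicate 1, and to 11 higher and 8 lower when early wild-type replicate 2 is left out as well.

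Averaged over both stages, which sets 6 libraries of each genotype against each other, 3 members rose and 4 fell. Pkp2, F11r and Cgn, the cingulin of the tight junction plaque, rose, where 4.04% of all tested genes were higher. Cdh4, Ncam1, Pkp4 and Ctnna1 fell, where 2.81% of all tested genes were lower. Of these, Pkp2, Cdh4, Ncam1 and Pkp4 were also called in the late comparison, which is part of this average.

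Pkp2 rose 1.95-fold over both stages (log2 fold change 0.97 ± 0.22 SE, adjusted p = 0.013). Its early values were 53.6, 35.4 and 46.3 CPM in mutants and 18.2, 27.9 and 34.3 CPM in wild type, so that mutants lay above wild type at both stages. No single library removed the call (adjusted p from 0.000794 to 0.045), nor did any other alternative. Pkp2 and F11r were the members that were higher without overlap at both stages, and no member was lower without overlap at both. Of all tested genes 3.89% were higher and 2.03% lower in this way.

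F11r rose 1.59-fold (log2 fold change 0.67 ± 0.20 SE, adjusted p = 0.0462), with early values of 116, 105 and 108 CPM against 101, 79.7 and 59.1 CPM. Cgn rose 2.48-fold (1.31 ± 0.38 SE, adjusted p = 0.0444), and 3.93-fold without late wild-type replicate 1 and early wild-type replicate 2. It was at 2.90, 3.77 and 3.06 against 0.898, 2.42 and 0.799 CPM early and at 7.63, 2.53 and 4.63 against 3.05, 1.20 and 1.48 CPM late. The late genotypes overlapped for Cgn and the early ones did not, and its late fold was 2.57 with all libraries (adjusted p = 0.114) and 4.02 without late wild-type replicate 1 (adjusted p = 0.0285). F11r lost its call without any of 9 libraries, all but early wild-type replicate 1, late mutant replicate 2 and late wild-type replicate 1 (largest adjusted p = 0.143). Cgn also lost its call without any of 9, all but early wild-type replicate 2, late mutant replicate 2 and late wild-type replicate 1 (largest adjusted p = 0.133).

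Ctnna1 fell 1.85-fold over both stages (log2 fold change -0.89 ± 0.25 SE, adjusted p = 0.0394), with early values of 115, 196 and 152 CPM against 380, 146 and 181 CPM. The early genotypes overlapped, and early wild-type replicate 1 alone stood far above the mutants. The call was lost without any of 9 libraries, all but early wild-type replicates 2 and 3 and late wild-type replicate 1 (largest adjusted p = 0.128). Ncam1 fell 1.71-fold (adjusted p = 0.0171), Pkp4 1.77-fold (adjusted p = 0.0389) and Cdh4 2.26-fold (adjusted p = 0.0271). Early Pkp4 values were 32.9, 32.4 and 29.9 CPM against 37.2, 28.0 and 62.8 CPM and overlapped. Ncam1 lost this call without any early mutant, late mutant replicate 1 or 3 or late wild-type replicate 2 (largest adjusted p = 0.0888). Pkp4 lost it in 8 of 12 leave-outs, of any early mutant, early wild-type replicate 3, late mutant replicate 1 or 3 or late wild-type replicate 2 or 3 (largest adjusted p = 0.119). Cdh4 lost it in 7 of 12, of any early mutant, early wild-type replicate 2, late mutant replicate 1 or 3 or late wild-type replicate 1 (largest adjusted p = 0.0969).

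Whether the genotype effect differed between the stages was tested directly. No member passed (smallest adjusted p = 0.18, 9 members with an unadjusted p under 0.05), where 0.00557% of all tested genes, 1 gene, did. DESeq2 called 2 members, Cdh13 and Ocln (5.13% of those tested), where it called 1.82% of all tested genes. With limma-voom 0 members were called, where 0.507% of all tested genes were. Cdh13 had a late minus early log2 difference of 3.26 ± 0.97 (SE, adjusted p = 0.182), Cdh4 of -1.99 ± 0.62 (adjusted p = 0.196), Cdh11 of 1.77 ± 0.64 (adjusted p = 0.283) and Afdn of -1.66 ± 0.56 (adjusted p = 0.25). Without late wild-type replicate 1 Afdn passed this test, as it did with no low-count filter. Of the 39 members 27 (69.2%) had the same sign early and late, against 59.2% of all tested genes.

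In the late comparison the authors' deposited table, made of their own fit, gave 13 of its 41 listed members a q-value under 0.05, 5 higher and 8 lower. Of the 16663 genes with a q-value in the authors' deposited table, 3.53% were higher and 4.06% lower by that rule. Beside the 7 members called here the authors' deposited table held Ctnna1, Tjp1, Jam2 and Alcam as lower and Cldn1 and Ocln as higher. For Tjp1 the authors' deposited table gave a log2 fold change of -0.95 (q = 0.0251). In the early comparison the authors' deposited table had 0 members under that q-value, where 1.87% of its genes were.

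Ratios of counts of 2 members within a library do not depend on the scaling between libraries. These pairs were chosen after their values were seen, so they carry no test. The Pkp2 to Pkp4 ratio was 3.24, 0.970 and 1.73 in late mutants and 0.459, 0.231 and 0.232 in late wild type, a 6.05-fold difference of geometric means. Early it was 1.63, 1.09 and 1.55 against 0.488, 0.997 and 0.546, and the genotypes did not overlap at either stage. The F11r to Jam2 ratio was 1.78, 0.884 and 0.981 in late mutants and 0.475, 0.330 and 0.312 in late wild type, and early it was 1.22, 0.741 and 0.792 against 0.507, 0.627 and 0.455. In this pair too every mutant library lay above every wild-type library of its stage. The Jam3 to Jam2 ratio was 2.95-fold higher in late mutants and 1.68-fold higher in early mutants, without overlap at either stage. The Cdh11 to Cdh4 ratio was 2.42, 2.90 and 5.85 in late mutants and 0.143, 0.337 and 0.315 in late wild type, a 13.9-fold difference, while early the genotypes overlapped (1.15-fold).

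**Figure D5:**
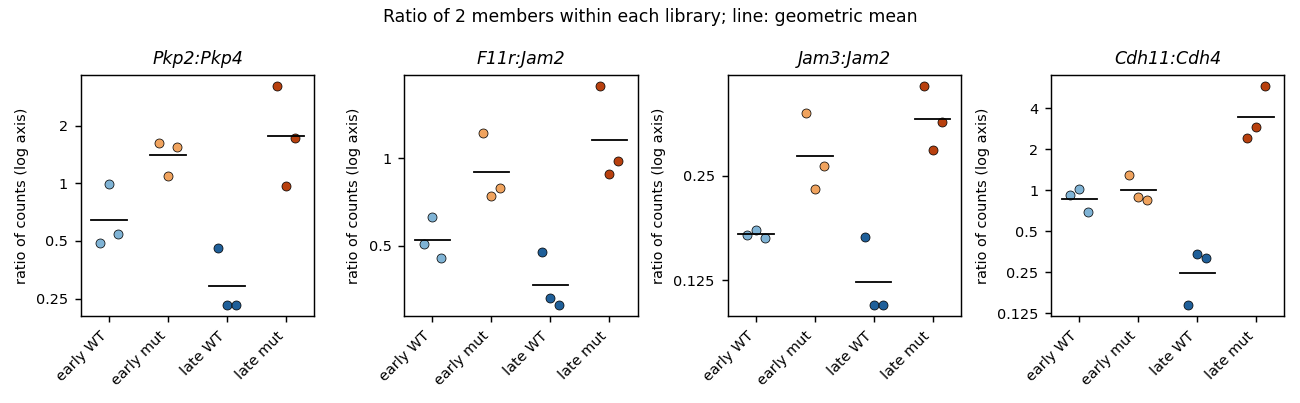
Ratio of the counts of 2 members within each library (log axis, points) for 4 pairs in the 4 groups, with the geometric mean as a line. The Pkp2 to Pkp4 ratio lies between 0.970 and 3.24 in late mutants and between 0.231 and 0.459 in late wild type.

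The members whose level followed Tjp1 most closely over the 12 libraries were Alcam (Pearson's r = 0.811, permutation p = 0.00157, adjusted p = 0.0597 over 38 relations, Spearman's rho = 0.776, permutation p = 0.00433, adjusted p = 0.0807) and Jam2 (r = 0.723, permutation p = 0.00848, adjusted p = 0.107, rho = 0.734, permutation p = 0.00838, adjusted p = 0.0807). Neither passed after adjustment. Without early mutant replicates 1 and 2, which lie farthest from the median of Tjp1, r was 0.926 for Alcam and 0.734 for Jam2. Ctnnd1 (r = 0.689), Ncam1 (r = 0.65) and Vcl (r = 0.649) came next, each with an adjusted permutation p of 0.119. The libraries fall into 4 groups and share their preparation, so these values do not separate group differences from other shared variation.

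Other junction genes, listed beside the members for context, numbered 134, of which 97 were tested. None passed early (6 with an unadjusted p under 0.05, 0 by DESeq2 and limma-voom at the adjusted threshold). Late, 3 rose, among them the focal adhesion gene Zyx (2.45-fold, adjusted p = 0.0205) and the adhesion molecule Ceacam1 (2.63-fold, adjusted p = 0.0361), and 1 fell, the small membrane protein Tmem47 (2.07-fold, adjusted p = 0.0185). Of all tested genes 2.77% were called higher late and 2.71% lower. Over both stages Ceacam1, Zyx, Cdhr1, a photoreceptor cadherin, and Perp, a desmosomal membrane protein, rose, and Mpdz, a tight junction scaffold, fell (1.62-fold, adjusted p = 0.0301). Here 4.04% of all tested genes were called higher and 2.81% lower. Tmem47 was at 39.1, 38.4 and 40.4 CPM in late mutants and 88.4, 75.9 and 79.5 CPM in late wild type, with no overlap. The late count of other junction genes called was 16 without late wild-type replicate 1, where 20.3% of all tested genes were called. It was 0 without late mutant replicate 1 or 3, where 1.19% and 1.24% of all tested genes were called.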

How the data were processed

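Messenger RNA of mouse corneal endothelium was sequenced in 12 libraries, 3 per group, made with a directional kit per the labels' protocols. Per the file headers, the authors deposited read counts for each gene, FPKM values (fragments per length and depth), and their own comparisons as log2 fold changes with a p-value and a q-value. GRCm39 is the build and HISAT2, HTSeq, fastp and DESeq2 are the tools per the submitters' processing notes. Not given in the sources used here: versions, annotation, strand setting and any batch adjustment. The FPKM values equal the deposited counts divided by the library total and 1 length per gene.

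The members and gene lists were chosen with earlier results of these data known. Counts were fitted with edgeR 4.0.16 (R 4.3.3): TMM scaling, filterByExpr on the 4 groups (14796 genes removed), robust quasi-likelihood F test, all 12 libraries fitted together (8 residual degrees of freedom), and Benjamini-Hochberg adjustment over the 17965 tested genes at 0.05. Standard errors were derived from the F statistic, and ± beside a log2 fold change is that error. The common biological coefficient of variation was 0.464. Where nothing says that libraries came from separate animals, p-values measure the spread between these libraries. The test was checked on simulated counts. Correlations used 1e+05 permutations. Counts in within-library ratios had 0.5 added.

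Values in every library are given for each member called in any comparison, the 8 highest by wild-type FPKM, and Tjp1, Cdh2, Gja1, Cldn11, Cdh5, Cdh1 and Ocln. Of the other junction genes 1 that was called is not reported here. Members with a library value given beyond these were named after their values were seen. Alternatives were DESeq2 1.42.0 size factors and Wald test, no filter, a filter of 5 CPM in 3 libraries, limma-voom (limma 3.58.1) with sample weights, each stage alone, a replicate block and leaving out libraries. Scaling the overlap counts by DESeq2 size factors and leaving out libraries for the ratios were added after the data were seen. Median log2 fold changes of all genes moved by less than 0.1 between scalings.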

Additional observations from a re-analysis of the deposited data

How the results depend on the processing

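The 7 members called late became 11 with no low-count filter, 15 by DESeq2's Wald test, 11 by limma-voom, 3 with the stage fitted alone, and 19 without late wild-type replicate 1 and early wild-type replicate 2. All genes called late, 983 as reported, numbered 1507, 2478, 1728, 489 and 4371 under these settings, and over both stages 1230 became 2160 by DESeq2, 2306 by limma-voom and 3285 without the same libraries. Leaving out 1 library gave 0 to 17. The 7 called over both stages became 14 by DESeq2's Wald test, 14 by limma-voom and 15 without the same 2 libraries, and 1 to 14 with 1 library left out. For the difference between stages the count was 1 with no filter, 2 by DESeq2 and 1 without those 2 libraries, and 0 to 1 in the leave-outs. All genes called for the difference, 1 as reported, numbered 297, 327 and 86 under the first 3 of these settings. The count of members called early was 0 in every setting. The other junction genes called late (4) became 7 with no filter, 14 by DESeq2, 7 by limma-voom, 1 with the stage alone, 17 without those 2 libraries and 0 to 16 in the leave-outs. Over both stages (5) they became 9 by limma-voom, 15 without those 2 libraries and 2 to 13 in the leave-outs. For the difference they became 1 by DESeq2, early 1 with no filter, and 0 in the early and difference leave-outs. Over all genes the leave-outs gave 51 to 179 early, 229 to 3909 late, 0 to 199 for the difference and 566 to 3004 over both stages.

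Same-numbered replicates did not deviate together, so the replicate number was not taken as a pairing. With the replicate block 456 genes in all and 4 members were called late (Pkp2, Cdh4, Ncam1 and Pkp4), 2 over both stages (Cgn and Pkp2), and 1 other junction gene late. Of 1527 values of named members under an alternative, 1378 kept their call or lack of one, 102 lost a call, 47 gained one and 0 called values reversed, while 49 uncalled values changed sign, 8 of them by more than 1 standard error. The cause was not tested, other than that the leave-outs and single-stage fits hold fewer libraries. With 3 libraries per group and totals from 19722598 counts, members near 3 counts are limited by depth.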
